A study of Mus musculus with 4 samples.

Results

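The genes described here are 9 that set where a lymphocyte settles: the integrin subunits Itga4, Itgb1, Itgb7, Itgae and Itgal, the selectin ligand Selplg, and the retention and egress regulators Cd69, Rgs1 and Klf2. They were taken by symbol from a table of 15835 genes, in which all 9 had a row, and 8 of the 9 passed a filter on low counts that kept 7700 genes for testing. The RNA came from group 2 innate lymphoid cells (ILC2), lymphocytes that live in tissues and secrete type 2 cytokines, taken from the islets of Langerhans of C57BL/6j mice that were fed or fasted, and the study profiled genes tied to ILC2 function in both states. There were 4 libraries per group, named by group and by their number (1, 3, 4 and 5), and the libraries named control in the table were taken as the fed ones. The length of the fast, the age and sex of the mice and the gate used to isolate the cells are not stated in the labels. Nor do the labels say that each library is a separate mouse, and p-values therefore cover library-to-library spread alone, part of which may be technical. Libraries were made with CEL-seq2, which counts the 3′ ends of polyadenylated RNA from barcoded samples.

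Integrins are pairs of an alpha and a beta subunit that bind ligands on other cells or in the matrix. The α4 chain (Itga4) pairs with β7 (Itgb7) to bind MAdCAM-1, a ligand of gut vessels, or with β1 (Itgb1) to bind VCAM-1; αE (Itgae) pairs with β7 to bind E-cadherin on epithelium, and αL (Itgal) pairs with β2 (Itgb2) to form LFA-1, which binds ICAMs. CD69 holds lymphocytes in tissue by taking the egress receptor S1PR1 off the cell surface, Rgs1 dampens signals of chemokine receptors, and Klf2 is a transcription factor that drives S1pr1 and is high in circulating cells.

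Total counts were 1797504 to 25252366 in fed libraries and 2041697 to 9366807 in fasted libraries, and 9537 to 14056 genes were detected per library. Transcripts of pancreatic acinar cells, which make digestive enzymes, took 42.4% to 73.0% of counts in the 4 fed libraries and 68.6% and 70.3% in fasted libraries 4 and 5, but 3.00% and 3.35% in fasted libraries 1 and 3. All 24 of 24 ILC2 identity genes had counts, led by Thy1 and Klrg1, and summed to 1420 to 4920 CPM (library counts scaled to a common total) in fed and 1800 to 7620 in fasted libraries. Summed T cell markers ran from 20.6 to 53.3 CPM of the total in fed libraries and from 38.6 to 138 in fasted libraries. Of these markers 11 of 15 had a row, led by Cd3g and Cd247, while Cd4, Trac, Trbc1 and Trbc2 had none. Fasted libraries 1 and 3 were highest at 135.7 and 137.8. They were also highest in ILC2 identity genes, at 7082 and 7621 CPM of the total. Summed B cell markers ran from 0.854 to 4.67 against 5.23 to 8.11, and myeloid markers from 42.3 to 113 against 25.6 to 670, the latter in fasted library 1. Integrins, Selplg and Cd69 are also made by T, B and myeloid cells, and the part of these cells in the values below was not tested. In RNA from a whole sample, fewer cells of a type and less RNA per cell cannot be told apart. Levels below are CPM over library sizes scaled by TMM, a method that corrects for a few abundant transcripts taking up much of a library.

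The question was whether these genes differ between fed and fasted ILC2. Cd69 had a log2 fold change (fasted minus fed) of 0.66 ± 0.24 (SE) and Klf2, its counterpart in egress, one of -0.46 ± 0.25, while Itga4, Itgb7 and Itgal had values of -0.02 ± 0.43, 0.03 ± 0.32 and -0.01 ± 0.21. No member passed the test after adjustment over all genes. By edgeR's quasi-likelihood test with Benjamini-Hochberg adjustment, 0 of 8 tested members passed an adjusted threshold of 0.05, as did 0 of 7700 genes (0%). At an unadjusted p under 0.05, 1 of 8 members (Cd69) passed, against 338 genes or 4.39% of all tested, and the same member was the 1 of 8 whose fed and fasted libraries did not overlap, against 271 genes or 3.52%. The count of 338 became 535 when the library number entered as a replicate block. DESeq2 called 8 genes (0.104%), 6 higher and 2 lower, and no member was among them. Among the members 4 log2 fold changes were above 0 and 4 below, with a median of 0.01, beside a median of -0.00 over all genes, of which 49.8% were above 0.

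**Figure D1:**
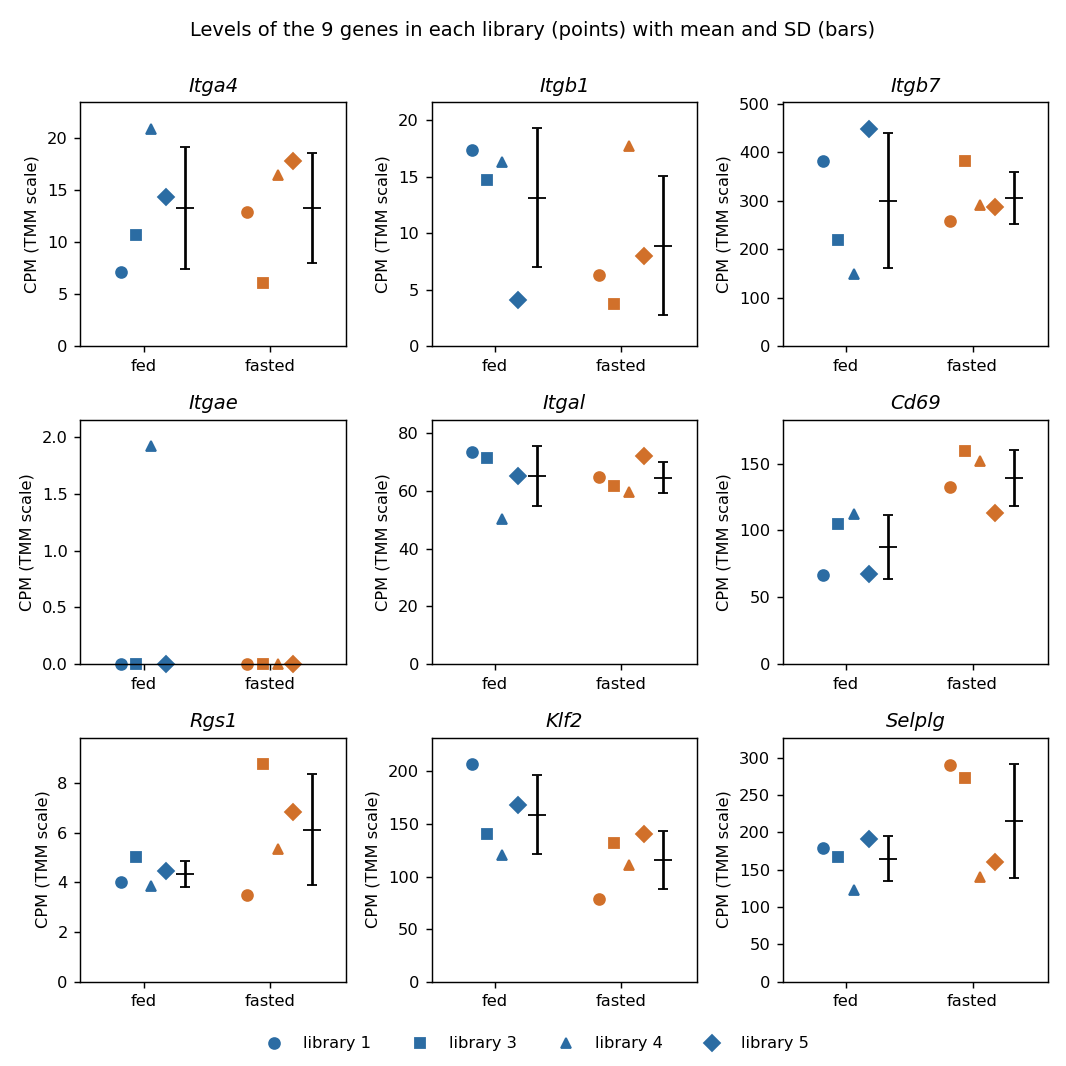
CPM over TMM-scaled library sizes of the 9 genes on linear axes from 0, 1 point per library (symbol: library number; blue: fed; orange: fasted), with bars at mean ± SD (n = 4) for the tested genes. Cd69 is the gene whose groups do not overlap, by 112.1 against 112.8, and Itgae shows counts in fed library 4 alone.

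Itga4, Itgb1 and Itgb7 encode the 3 chains of the α4 integrins. Itga4 lies on chromosome 2 of the mm10 build, 79255426 to 79333123, plus strand. Itgb1 lies on chromosome 8, 128685654 to 128733200, plus strand, and Itgb7 on chromosome 15, 102215995 to 102231944, minus strand. The 2 beta genes are alternative partners of 1 alpha chain, so their RefSeq promoters (build GRCm38.p6, 250 bases before to 50 after the start, 5′ to 3′) are shown side by side, with capitals marking CACCC, the core of the box bound by KLF factors, or its reverse complement GGGTG. They lie at chr15:102231886-102232185 (minus strand) and chr8:128685404-128685703 (plus strand):
Itgb7: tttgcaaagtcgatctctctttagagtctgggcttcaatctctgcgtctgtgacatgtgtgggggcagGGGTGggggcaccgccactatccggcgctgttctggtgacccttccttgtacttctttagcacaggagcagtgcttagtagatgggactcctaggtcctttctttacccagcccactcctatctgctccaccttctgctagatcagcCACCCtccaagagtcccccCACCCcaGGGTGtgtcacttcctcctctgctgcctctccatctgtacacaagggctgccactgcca
Itgb1: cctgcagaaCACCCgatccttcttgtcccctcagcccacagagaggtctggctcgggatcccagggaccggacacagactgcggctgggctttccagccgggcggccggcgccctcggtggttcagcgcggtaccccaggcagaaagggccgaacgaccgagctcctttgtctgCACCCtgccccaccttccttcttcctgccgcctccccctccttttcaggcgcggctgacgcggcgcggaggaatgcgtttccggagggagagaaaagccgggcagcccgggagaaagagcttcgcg
The Itgb7 window held 4 matches and 56.3% G and C, and the Itgb1 window held 2 matches and 67.3%. Such a match is a description of letters: 57.5% of 32851 promoters of this length held at least 1. TGTGGT (or ACCACA), the core read by RUNX factors, was in neither and in 16.8% of all promoters. Promoters were found for 4 of the 9 genes; Itga4 had 4 matches to CACCC and 1 to TGTGGT, which share 2 bases, and Klf2 had 1 match to CACCC.

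Itgb7 stood at 381, 219, 149 and 449 CPM in fed libraries 1, 3, 4 and 5, and at 259, 383, 290.2 and 288 in fasted libraries 1, 3, 4 and 5. The fed libraries spanned the fasted ones on both sides, with fed library 4 lowest and fed library 5 highest. Fasted minus fed, the log2 fold change was 0.03 ± 0.32 (SE; 95% interval -0.68 to 0.73). This interval leaves room for a shift of either sign.

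Itga4 stood at 7.14, 10.7, 20.9 and 14.4 CPM in the fed libraries and at 12.9, 6.05, 16.4 and 17.8 in the fasted ones. The groups covered nearly the same range, and the log2 fold change was -0.02 ± 0.43 (95% interval -0.95 to 0.92). It was 0.35 ± 0.46 without the acinar-poor fasted libraries 1 and 3, and 0.30 ± 0.45 without fed library 4. Itga4 overlaps Cerkl on the opposite strand by 2581 bases including exon sequence, and the sources used here do not say whether counting used strand.

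Itgb1 stood at 17.4, 14.7, 16.3 and 4.11 CPM in the fed libraries and at 6.32, 3.71, 17.7 and 7.96 in the fasted ones. Among the fed libraries number 5 was low, with 12 counts, and among the fasted ones number 4 was high. Its log2 fold change of -0.56 ± 0.55 (95% interval -1.76 to 0.64) did not pass the test, with an adjusted p = 1.00 by edgeR. It was -0.03 ± 0.59 without fasted libraries 1 and 3, -0.31 ± 0.55 without fasted library 3, -1.15 ± 0.53 without fasted library 4 and -0.85 ± 0.49 without fed library 5. Thus the size of this value rested on which libraries entered it.

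Because both beta chains were counted in each library, their ratio does not depend on scaling or on RNA that holds neither gene. Priming differs between genes, so the ratio is compared between libraries and not read as a ratio of molecules. Itgb7 had 21.9, 14.9, 9.15 and 109.2 counts per Itgb1 count in the fed libraries and 41.0, 103.2, 16.4 and 36.2 in the fasted ones. The groups overlapped, with fed library 5 above every fasted one. The mean log2 ratio was 0.74 higher in fasted libraries, with an exact two-sided permutation p = 0.46, or 0.61 adjusted over 4 such ratios. It was 0.05 without fasted libraries 1 and 3, 0.29 without fed library 4, 0.29 without fasted library 3, 1.15 without fasted library 4 and 1.44 without fed library 5, so its size rested on single libraries. Among 70 assignments of 8 libraries the smallest p that can be reached is 0.0286.

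Itgal (chromosome 7, 127296260 to 127335138, plus strand) had the smallest standard error among the members. It stood at 73.6, 71.4, 50.4 and 65.1 CPM in fed libraries and 64.8, 61.9, 59.7 and 72.0 in fasted libraries. The fasted values lay inside the fed range, and their coefficient of variation was 8.31% against 16.1%. Its log2 fold change was -0.01 ± 0.21 (95% interval -0.47 to 0.45). Its partner Itgb2 stood at 290.2 ± 63.2 CPM (SD, n = 4) in fed and 318 ± 80.3 in fasted ones (log2 fold change 0.13 ± 0.25). The ratio of Itgal to Itga4 differed by 0.01 on the log2 scale, with an exact permutation p = 0.97 (0.97 adjusted).

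Itgae (chromosome 11, 73090583 to 73147446, plus strand) marks lymphocytes lodged in epithelium. It had 26 counts in fed library 4, the deepest library, and 0 in the other 7. That is 1.92 CPM in fed library 4, and a count of 0 allows up to 3 counts, or 0.406 to 1.34 CPM in the other fed and 0.553 to 0.702 in the fasted libraries. On this TMM scale the level of fed library 4 lay above what these floors allow elsewhere. Over library totals alone it was 1.03 CPM. That was below the floors of fed library 1 (1.67) and fasted libraries 1 and 3 (1.47 and 1.18), and above those of the others. A value in 1 library gives no comparison of groups. The ratio of Itgae to Itgb7 was 1.31 lower on the log2 scale in fasted libraries, with an exact permutation p = 0.20 (0.40 adjusted). That difference rested on the 26 counts of fed library 4 and was -0.31 without it. Of the ligands, Madcam1 had 0 counts in all 8 libraries, and Vcam1 had 12 counts in fasted library 4 and 0 elsewhere. Icam1, a ligand of LFA-1, had 24.0 ± 8.91 CPM in fed and 23.3 ± 12.2 in fasted libraries (log2 fold change -0.05 ± 0.42), and Cdh1, which encodes E-cadherin, had a log2 fold change of -0.26 ± 1.26.

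Selplg encodes PSGL-1, a mucin that binds P-selectin on vessels, and lies on chromosome 5, 113818536 to 113832644, minus strand. It stood at 179, 167, 122 and 190.4 CPM in fed libraries and at 289.8, 272, 141 and 159.8 in fasted libraries. Fasted libraries 1 and 3 stood above every fed library, while fasted 4 and 5 lay inside the fed range. The log2 fold change was 0.39 ± 0.28 (95% interval -0.22 to 1.00). The high libraries are the 2 poor in acinar RNA. As shares of all counts they were richest in T cell markers, but also in ILC2 identity genes (7082 and 7621 CPM of the total). Across the 8 libraries the Selplg level correlated with the log2 acinar share at -0.913, a description of libraries that fall into separate clusters. Without fasted libraries 1 and 3 the log2 fold change was -0.14 ± 0.31, and it was -0.07 ± 0.24 with the log2 acinar share as a covariate.

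Cd69 (chromosome 6, 129267325 to 129275436, minus strand) stood at 66.9, 104.6, 112.1 and 67.5 CPM in fed libraries and at 132.6, 159.6, 151.7 and 112.8 in fasted libraries. The group means were 87.8 ± 24.0 and 139 ± 20.9 (SD, n = 4). All 4 fasted libraries stood above all 4 fed ones, but fed library 4 and fasted library 5 were nearly level. The log2 fold change was 0.66 ± 0.24 (95% interval 0.13 to 1.20), with an unadjusted p of 0.020 and an adjusted p = 1.00 by edgeR. Between libraries of the same number, fasted was higher by 0.44 to 0.98. That sign in 4 of 4 adds no support, since any matching of groups that do not overlap gives it. The fit with the library number as a replicate block gave 0.69 ± 0.18 with an adjusted p = 0.49 by edgeR.

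The separation of the Cd69 groups was within rounding of the scaling method. With edgeR's RLE factors, an alternative to TMM, the highest fed library stood at 112.2 and the lowest fasted at 112.0. The groups also overlapped with library totals alone and with TMM factors computed without acinar and islet genes. Leaving out any 1 library gave log2 fold changes between 0.56 and 0.80, and the value was 0.59 ± 0.33 without fasted libraries 1 and 3. With library totals alone it was 1.25, where the median of all genes moved to 0.51. Set against Ptprc, which encodes CD45 of all leukocytes, the mean log2 ratio was 0.45 higher in fasted libraries with overlapping groups (exact permutation p = 0.31). That ratio difference was 0.18 without fasted libraries 1 and 3, 0.20 without fed library 1, 0.68 without fed library 5 and 0.72 without fasted library 4.

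Klf2 (chromosome 8, 72319033 to 72321656, plus strand) stood at 207, 140.5, 120.2 and 168 CPM in fed libraries and 79.1, 132, 111 and 140.3 in fasted libraries. Fasted library 1 was lowest and fed library 1 highest, and the groups overlapped. The log2 fold change was -0.46 ± 0.25 (95% interval -1.01 to 0.10), with an adjusted p = 1.00 by edgeR. Fasted was lower in 4 of 4 same-number comparisons, by -1.39 for number 1 and by -0.09 to -0.26 for the others. It was -0.30 ± 0.26 without fed library 1 and -0.07 ± 0.72 with library totals alone. S1pr1, which Klf2 is known to drive, was too sparse to compare, with 6, 3, 53 and 0 counts in fed and 0, 5, 0 and 4 in fasted libraries.

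Rgs1 (chromosome 1, 144242296 to 144249242, minus strand) rested on 9 to 52 counts per library. It stood at 4.01, 5.01, 3.84 and 4.45 CPM in fed and 3.51, 8.78, 5.35 and 6.82 in fasted libraries. Fasted 3, 4 and 5 lay above every fed library and fasted 1 below every one. Its log2 fold change was 0.50 ± 0.44 (95% interval -0.46 to 1.46), and 0.27 ± 0.48 without fasted library 3.

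Cd69 and Klf2 stood on opposite sides in these data, and their within-library ratio needs no scaling. Cd69 had 0.323, 0.745, 0.932 and 0.402 counts per Klf2 count in fed libraries and 1.68, 1.21, 1.37 and 0.804 in fasted libraries. Klf2 had the larger count in all 4 fed libraries, and Cd69 had it in fasted 1, 3 and 4 but not 5. The mean log2 ratio was 1.15 higher in fasted libraries, with an exact two-sided permutation p = 0.057 and 0.23 after adjustment over the 4 ratios. Between libraries of the same number it was higher fasted in 4 of 4, by 2.37, 0.70, 0.55 and 1.00 for numbers 1, 3, 4 and 5, and exact two-sided sign flips of these pairs gave p = 0.125, the smallest that 4 pairs allow (0.25 adjusted over the 4 ratios). It lay between 0.90 and 1.41 when any 1 library was left out, and it was 0.93 without fasted libraries 1 and 3. This difference did not pass the test.

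**Figure D2:**
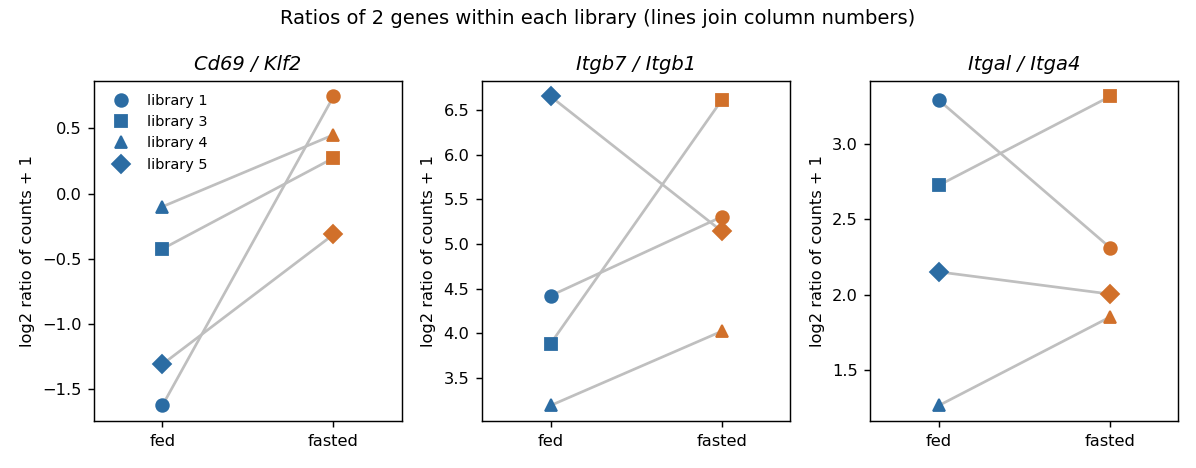
Log2 ratios of counts (1 count added) for 3 pairs of members, 1 point per library, with lines joining fed (blue) and fasted (orange) libraries of the same number. For Cd69 to Klf2 the fed libraries run from -1.63 to -0.10 and the fasted ones from -0.31 to 0.74, so the groups overlap.

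The 8 ratios to Ptprc, for each member with counts in every library, set the genes against a leukocyte transcript. Their p-values were not adjusted. Any counts of a member from cells other than leukocytes stay in its ratio. Itgb1 had 25.7, 29.2, 20.9 and 16.7 counts per 100 Ptprc counts in fed and 12.7, 6.71, 15.5 and 19.4 in fasted libraries. Fasted library 5 stood above fed library 5, so the groups overlapped, and the mean log2 ratio was -0.84 with an exact permutation p = 0.057. With 5 counts added in place of 1 it was -0.81 with an exact permutation p = 0.029, the smallest the design allows. Without fasted libraries 1 and 3 it was -0.40. Across the 8 libraries the level of Itgb1 correlated with the log2 acinar share at 0.572. Summed ductal, stromal and endothelial markers ran from 118 to 268 CPM of the total in fed and from 26 to 201 in fasted libraries. The part of acinar and such other cells in the Itgb1 counts was not tested. The other 7 differences lay between -0.70 for Klf2 and 0.45 for Cd69, with exact permutation p-values of 0.29 or more. The value for Klf2 ran from -1.03 without fed library 4 to -0.32 without fed library 5.

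**Figure D3:**
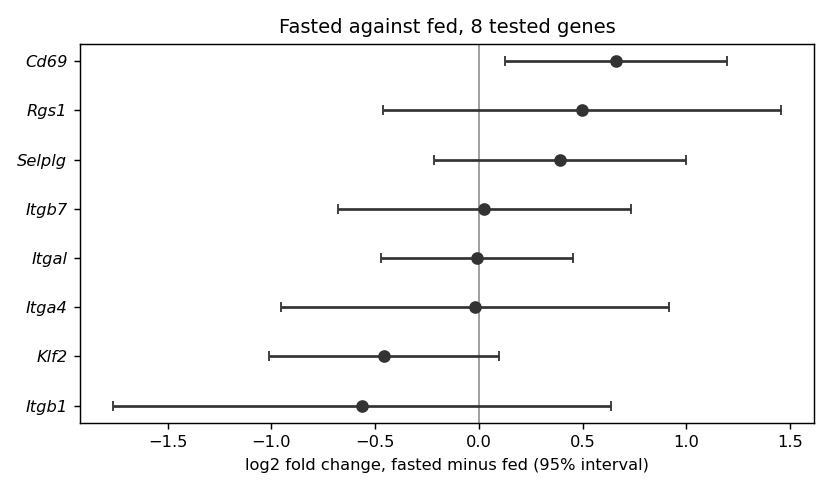
Log2 fold change, fasted minus fed, of the 8 tested members with 95% intervals from edgeR's fit over 7700 genes. The interval of Cd69 lies above 0 before adjustment, and the other 7 intervals include 0.

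The wider families were read from lists that include the members, and no gene of any list passed an adjusted threshold of 0.05. Of the integrin alpha subunits 15 of 18 had a row and 4 were tested, 1 with a log2 fold change above 0 and 3 below. Of the 8 beta subunits 4 were tested, 3 above and 1 below. Itgb3, the β3 chain that pairs with αV, stood at 133.4, 127.2, 53.9 and 93.2 CPM in fed libraries and at 179, 248, 134.2 and 156 in fasted libraries. Its groups met without overlapping on this scale, but they overlapped with library totals alone. The log2 fold change was 0.82 ± 0.31 with an adjusted p = 1.00 by edgeR. It was 0.52 ± 0.31 with the log2 acinar share as a covariate and 0.50 ± 0.38 without fasted libraries 1 and 3. Itgav, the αV chain, had 8.30 ± 6.37 CPM in fed and 5.78 ± 1.33 in fasted ones (log2 fold change -0.57 ± 0.60), and Itga3 had 0.89 ± 0.82. Itga3 was 2.19 ± 0.74 without fed library 3, 0.48 ± 0.88 without fasted library 1 and -0.44 ± 0.95 without fasted libraries 1 and 3.

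Of 40 genes that regulate integrins or link them to the cytoskeleton, 31 were tested. Of these 21 were above 0 and 10 below, with a median log2 fold change of 0.12. With the log2 acinar share as a covariate 16 of 31 stood above 0 (median 0.04). Without fasted libraries 1 and 3 it was 20 of 36 (median 0.06). Rassf5, which encodes the Rap1 effector RAPL, had 30.9 ± 5.89 CPM in fed and 44.0 ± 7.42 in fasted libraries (0.50 ± 0.25). Cytip, a partner of cytohesin, had 0.43 ± 0.23, while the GTPase Rap1a had -0.54 ± 0.35 and its exchange factor Rapgef2 -0.80 ± 0.64. Of the integrin ligands 5 of 15 were tested, 1 above 0 and 4 below: Icam2, a ligand of LFA-1, had 0.13 ± 0.40, and the matrix genes Lamc1 and Col1a1 had -1.08 ± 0.60 and -0.34 ± 1.08. None of these passed the test.

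Among selectins and the enzymes that build their ligands 9 of 16 were tested, 5 above 0 and 4 below. The sialyltransferases St3gal4 and St3gal6 had 0.58 ± 0.45 and 0.36 ± 0.39, Cd24a, a P-selectin ligand, had -0.58 ± 0.51, and the sulfotransferase Tpst2 had -0.06 ± 0.25. Among egress receptors and sphingosine phosphate genes 13 of 20 were tested, 7 above 0 and 6 below. Sphk2, a sphingosine kinase, had 0.36 ± 0.27, Arhgef1 had 0.36 ± 0.32, S1pr2 had -0.85 ± 0.70 and Klf3, a KLF repressor, had -0.38 ± 0.28. Of the RGS proteins 7 of 12 were tested and 6 stood above 0, with a median of 0.28. Rgs3 and Rgs14 had 0.96 ± 0.68 and 0.53 ± 0.48, and Rgs19 had -0.18 ± 0.36.

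The tissue residency list, genes known from lymphocytes that stay in tissues, had 28 of 40 tested, 19 above 0 and 9 below, with a median log2 fold change of 0.22. Of the 28, 6 had an unadjusted p under 0.05, against 4.39% of all genes. For 3 (Vps37b, Fosl2 and Cd69) the fasted libraries lay wholly above the fed ones, against 2.21%. With library totals alone the groups of all 3 overlapped. The lists were chosen with earlier results of these data known, so these counts describe the list and are no test of it. Vps37b, of the endosomal sorting machinery, stood at 69.1, 109.7, 74.8 and 111 CPM in fed libraries and 258, 169.8, 141 and 141 in fasted ones (log2 fold change 0.96 ± 0.27) with an adjusted p = 0.72 by edgeR. Fosl2, an AP-1 factor, stood at 119, 236, 178 and 228 CPM in fed and 384, 428, 253 and 281 in fasted libraries (0.82 ± 0.27, adjusted p = 0.87 by edgeR). In both genes fasted libraries 1 and 3 stood highest. Named after their values were seen, the chemokine receptor Ccr8 had 0.77 ± 0.31, the stress gene Ppp1r15a 0.66 ± 0.25 and the immediate early gene Nr4a1 0.62 ± 0.27, each with an adjusted p = 1.00 by edgeR. Hic1, a repressor, had -2.25 ± 1.34 and Litaf -0.71 ± 0.62.

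The lean of the residency list moved with the acinar-poor libraries. With the log2 acinar share as a covariate 14 of 28 genes stood above 0 (median 0.02), and without fasted libraries 1 and 3 it was 15 of 30 (median -0.02). Vps37b was then 0.62 ± 0.32, Fosl2 0.48 ± 0.33, Ccr8 0.54 ± 0.42, Ppp1r15a 0.27 ± 0.31 and Nr4a1 0.23 ± 0.32. With library totals alone 25 of 28 stood above 0 (median 0.72), beside the median of 0.51 over all genes. The circulating lymphocyte list had 12 of 26 tested, 6 above 0 and 6 below, with a median of 0.06. Of the 12, 2 had an unadjusted p under 0.05, against 4.39% of all genes. For 1 (Bach2) the fasted libraries lay wholly above the fed ones, against 2.21%. The highest fed and lowest fasted Bach2 levels were 5.17 and 5.31 CPM, and with library totals alone the groups overlapped. As Cd69 and Rgs1 are on the residency list, Itga4, Itgb1 and Klf2 are on the circulating one. Its Lef1, a factor of naive lymphocytes, had 9.69 ± 3.18 CPM in fed and 21.3 ± 8.04 in fasted libraries (1.16 ± 0.37, adjusted p = 0.85 by edgeR), and Bach2, a repressor of effector genes, had 3.01 ± 1.61 and 7.80 ± 2.36 (1.31 ± 0.50, adjusted p = 1.00 by edgeR). Klf3 is also on this list, and Fam65b had -0.20 ± 0.23.

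**Figure D4:**
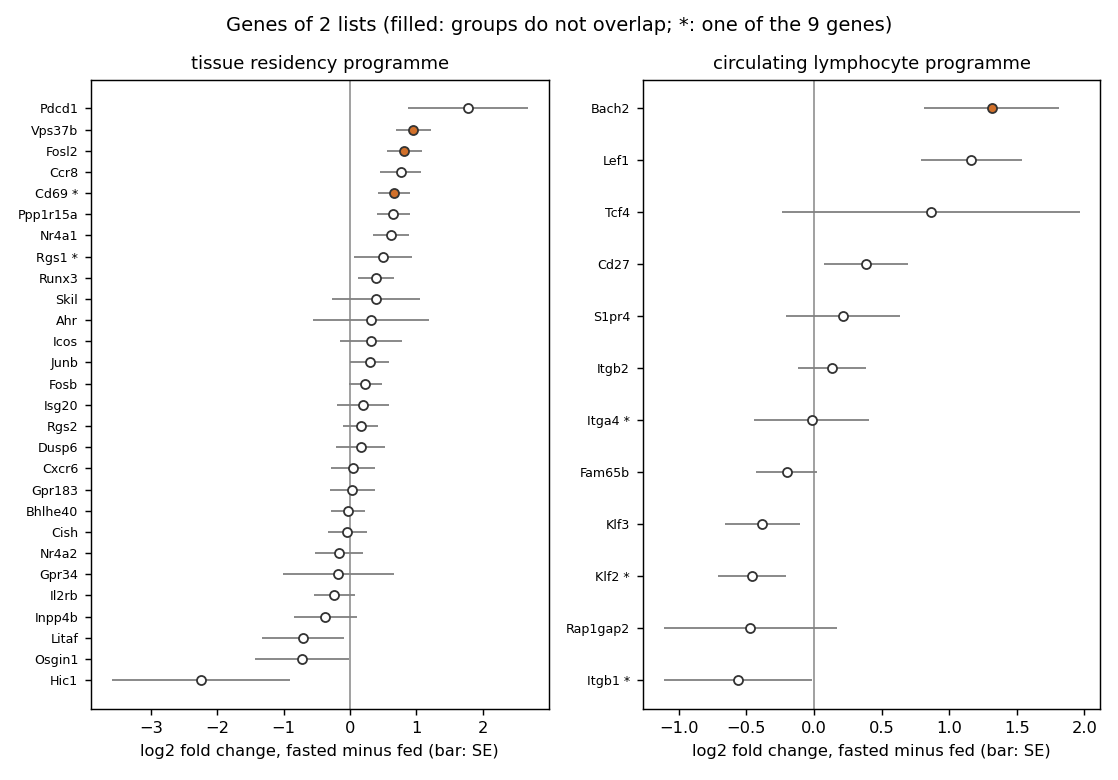
Log2 fold change, fasted minus fed, of each tested gene of the residency and circulating lists, with bars for the SE, filled points where the groups do not overlap and stars on the 9 genes described here. The residency list has 19 of 28 genes above 0 with a median of 0.22, and the circulating list 6 of 12 with a median of 0.06.

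**Figure D5:**
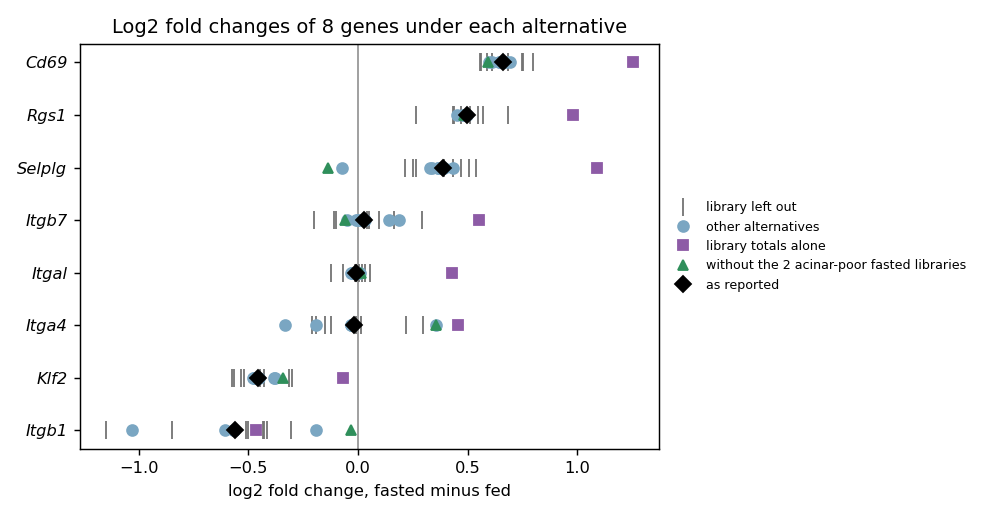
Log2 fold change, fasted minus fed, of the 8 tested members as reported (diamond), with each library left out (ticks), with library totals alone (square), without the acinar-poor fasted libraries (triangle) and under the other alternatives (circles). Cd69 stays above 0 (0.56 to 1.25) and Klf2 below 0 (-0.58 to -0.07) in all of them, and Itga4, Itgb7, Itgal and Selplg lie on both sides.

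For each tested member the gene most like it over the 8 libraries, among 4002 genes with a mean of at least 10 CPM, is given as a description, since libraries share depth and acinar RNA. Pearson correlations of log2 CPM were 0.99 for Itga4 with A130077B15Rik, 0.948 for Itgb1 with Tars, 0.961 for Itgb7 with Cnpy3 and 0.956 for Itgal with Polr2g. They were 0.96 for Cd69 with Ube2h, 0.939 for Rgs1 with Fosb, 0.943 for Klf2 with Pdlim1 and 0.976 for Selplg with Rhog. Among the members Cd69 and Klf2 correlated at -0.751, and at -0.565 once group means were removed. The latter value was not particular to this pair. With group means removed, Itgb7 correlated with Cd69 at -0.709 and with Klf2 at 0.707. Itgb1 then correlated with Selplg at -0.688, and Rgs1 with Klf2 at 0.682. Itga4 correlated with the log2 library total at 0.787 and Selplg at -0.819.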

How the data were processed

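RNA was measured in 4 fed and 4 fasted libraries. The authors deposited raw whole-number counts for each gene; the sources used here do not say if these are reads or molecular identifiers. The submitters' processing notes name STAR, edgeR and mm10. The 4 sequencing files hold both treatments, so a library's treatment was read from its column name; 2 further columns were not used, and 11 ERCC rows with 20 counts were left out.

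Testing used edgeR 4.0.16 under R 4.3.3 (TMM, filterByExpr, robust quasi-likelihood test, no covariate, two-sided), with Benjamini-Hochberg adjustment over all 7700 genes and a threshold of 0.05. CPM were computed from these counts, and log2 CPM with a prior count of 0.5. Ratios within libraries used counts plus 1 and exact permutation tests. Floors are 3 counts and cover counting error only. The edgeR, DESeq2 and limma-voom tests were checked on simulated counts, in which no library was poor in acinar RNA. The permutation and sign-flip tests were not simulated. Alternatives were other scalings, filters, DESeq2 1.42.0, limma-voom 3.58.1, a replicate block, an acinar covariate, thinning, and libraries left out. Libraries of the same number correlated in their deviations from the group means at 0.213, 0.123, 0.482 and 0.121. Fed 1 with fasted 3 (0.186) and fed 4 with fasted 5 (0.202) were also above 0.1. In both groups libraries 1 and 3 had lower acinar shares than libraries 4 and 5, so these values do not show that numbers mark pairs. No label explains the numbers. The main test did not use them, and same-number comparisons are given as an alternative.

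The members and lists were chosen with earlier results of these data known. Genes named are the 9 members; of each list, the 2 genes outside the members with the smallest p in each direction; known targets, partners and ligands; and the gene most correlated with each member. Not every gene taken by this rule is reported here. Coordinates are from GENCODE vM21 on mm10.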

Additional observations from a re-analysis of the deposited data

Results flagged for a closer look

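In 124 groups of 4 libraries examined, 8 had 1 library far from the other 3, and chance gives about 1 in 20. Among the members, Itgae in fed library 4 stood at 1.92 CPM against 0 in the other fed libraries. The log2 ratio of Cd69 to Ptprc in fasted library 4 was 0.406, against 1.41 in the next. Among the related genes, Itgb2 was low in fed library 4 at 196.2 CPM, against 312 in the next. Itga3 in fed library 3 stood at 18.1 CPM and Rgs19 in the same library at 24.0 CPM. In fasted libraries, Col1a1 stood at 11.1 CPM in library 3 and Tpst2 at 25.0 CPM in library 5. Summed myeloid markers stood at 669.5 CPM of the total in fasted library 1, against 70.3 in the next. Over all libraries that sum was led by Cd74 and H2-Aa.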

How the results depend on the processing

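Across 19 alternatives (18 for Rgs1, which thinning removed) the log2 fold changes of Cd69, Rgs1, Klf2 and Itgb1 kept their sign, and no member or list gene named here reached an adjusted p under 0.05. The count of genes called was 1 with library totals alone, 1 without a filter and 8 with DESeq2, and 0 to 0 when 1 library was left out. Genes with an unadjusted p under 0.05 numbered 919 without a filter, 714 with limma-voom, 535 with the replicate block and 248 to 561 when 1 library was left out. Genes whose groups did not overlap numbered 61 with library totals alone, 979 with fasted libraries 1 and 3 left out and 421 to 699 when 1 library was left out. Fewer libraries make non-overlap easier, and the cause of the other shifts was not tested.

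Signs that turned, as log2 fold changes, were as follows. With the acinar covariate, Itga4 was 0.35, Itgb7 -0.049, Selplg -0.071, Itga3 -0.33, Itgb2 -0.16, Icam2 -0.23, Tpst2 0.011 and Arhgef1 -0.14. Without the acinar-poor fasted libraries, Itga4 was 0.35, Itgb7 -0.060, Itgal 0.013, Selplg -0.14, Itga3 -0.44, Itgb2 -0.20, Icam2 -0.30, Tpst2 0.017 and Arhgef1 -0.21, and the log2 ratios were -0.43 for Itgal to Itga4, 0.021 for Itga4 to Ptprc and -0.55 for Selplg to Ptprc. With library totals alone, Itga4 was 0.46, Itgal 0.43, Itgav 0.057, Col1a1 0.47, Tpst2 0.43, Klf3 0.13, S1pr2 0.10, Rgs19 0.24 and Fam65b 0.29. With limma-voom, Tpst2 was 0.029 and Hic1 0.075. With thinned counts, Itgb7 was -0.0099, Itgal 0.0090 and St3gal6 -0.17. With the replicate block, Itgal was 0.00065, and the block changed no other sign or call of a named gene; for the ratios of 2 members it was added after the data had been seen and changed no call. The cause was not tested.

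Leaving out 1 library gave ranges of -2.43 to 0.15 for Col1a1, -0.083 to 0.58 for Icam2, -0.21 to 0.30 for Itga4, -0.12 to 0.055 for Itgal, -0.022 to 0.27 for Itgb2, -0.20 to 0.29 for Itgb7, -0.38 to 0.11 for Rgs19 and -0.17 to 0.033 for Tpst2. For ratios to Ptprc they were -0.64 to 0.16 for Itga4, -0.57 to 0.11 for Itgal, -0.60 to 0.48 for Itgb7, -0.12 to 0.53 for Rgs1 and -0.25 to 0.59 for Selplg, and -0.35 to 0.32 for Itgal to Itga4. Rgs1 rested on as few as 9 counts in a library, and between 4 and 4 libraries a Cd69-sized difference did not pass adjustment.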
